A study of Mus musculus with 20 samples.

Results

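The creatine system was followed here through 7 genes, chosen by symbol: the creatine kinases Ckm, Ckb, Ckmt1 and Ckmt2, the enzymes of creatine synthesis Gatm and Gamt, and the creatine transporter Slc6a8. They were 7 of the 50559 genes in the deposited count tables, and 5 of them were among the 14333 genes that passed the filter on low counts, Ckm through the sgTrp53+MYC libraries alone. The set was drawn up because Ckm was among the genes with the largest differences between tumor types in these same libraries, so the levels of Ckm are described without a test, and 4 members were tested in the model across all genes.

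Creatine is made in a pair of steps. Gatm transfers the amidino group of arginine to glycine, which gives guanidinoacetate, and Gamt methylates this product with S-adenosylmethionine. The kidney is the classical site of the first step and the liver of the second, and tissues that use creatine take it up from blood through Slc6a8. Creatine kinases move a phosphate between ATP and creatine, which buffers ATP where demand is high. Ckm is the cytosolic form of skeletal muscle and heart, Ckb the cytosolic form of brain and many other tissues, Ckmt1 the ubiquitous mitochondrial form and Ckmt2 the mitochondrial form of striated muscle. Normal hepatocytes are known for very little creatine kinase.

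Poly(A) RNA was sequenced from 20 mouse liver samples in 4 groups of 5, all from wild-type C57Bl6J animals. Tumors had been raised in female mice, aged 6 to 8 weeks when hydrodynamically injected with plasmids and a sleeping beauty transposase, which integrates the transgenes mainly into hepatocytes. All 15 tumors carried a MYC transgene. The Aldafermin+MYC group also received Aldafermin, an analog of FGF19 altered in its N-terminal part, the FGF19+MYC group received the human hormone FGF19 itself, and the sgTrp53+MYC group received a guide RNA with Cas9 against Trp53. The Liver group is labelled healthy and non treated, whereas the study also describes its control livers as injected with an RFP plasmid. Livers were collected when tumor signs or a set endpoint were reached, so the time after injection was not the same throughout. There was no sgTrp53+MYC tumor with FGF19 and no group with MYC alone.

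Reads assigned to genes were between 18004977 and 44427184 per library in the Aldafermin+MYC, FGF19+MYC and Liver groups and between 54042455 and 66354724 in the sgTrp53+MYC group. The sgTrp53+MYC libraries were deposited in a table of their own and had 5.34% to 6.82% unaligned and 11.1% to 14.6% ambiguous reads, against 15.3% to 34% and 3.03% to 6.3% in the other groups. For every comparison with sgTrp53+MYC, tumor type and table therefore cannot be told apart. The hepatoma marker Afp had 555 ± 402 CPM (read counts scaled to a common library size by TMM; SD, n = 5) or more in each tumor group and 1.86 ± 2.59 CPM (SD, n = 5) in Liver, as the labels say. Trp53 transcripts were between 18.7 and 79.9 CPM in sgTrp53+MYC tumors and between 90.8 and 176 CPM in the other tumors. In Liver they were between 28.8 and 36.4 CPM, inside the sgTrp53+MYC range. A guide RNA changes the gene rather than removing its transcript, so the Trp53 transcript level does not measure editing.

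Of the 6 members with a promoter entry in RefSeq (GRCm38.p6), 3 are shown because the results turn on them: Ckm, which was high in sgTrp53+MYC tumors, Gatm, which was high in most of the same tumors, and Ckb, the kinase form that made up nearly all creatine kinase transcripts elsewhere. Each run is the 250 bases before the annotated start, 5′ to 3′ on the strand of the gene, and capitals mark matches to TATAAA or CCAAT on either strand (on the opposite strand they read TTTATA and ATTGG). The window of Ckm lies at chr7:19410844-19411093 on the plus strand, that of Gatm at chr2:122611278-122611527 on the minus strand and that of Ckb at chr12:111672339-111672588 on the minus strand.
Ckm: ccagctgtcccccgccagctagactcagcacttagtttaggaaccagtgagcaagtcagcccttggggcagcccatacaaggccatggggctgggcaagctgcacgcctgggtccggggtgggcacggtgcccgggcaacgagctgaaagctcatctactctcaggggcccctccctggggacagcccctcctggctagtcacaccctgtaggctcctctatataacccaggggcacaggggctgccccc
Gatm: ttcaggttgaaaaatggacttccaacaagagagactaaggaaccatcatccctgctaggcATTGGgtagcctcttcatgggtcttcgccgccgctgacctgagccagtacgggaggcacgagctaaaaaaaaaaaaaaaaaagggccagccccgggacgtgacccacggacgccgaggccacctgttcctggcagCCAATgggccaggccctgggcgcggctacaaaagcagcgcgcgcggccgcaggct
Ckb: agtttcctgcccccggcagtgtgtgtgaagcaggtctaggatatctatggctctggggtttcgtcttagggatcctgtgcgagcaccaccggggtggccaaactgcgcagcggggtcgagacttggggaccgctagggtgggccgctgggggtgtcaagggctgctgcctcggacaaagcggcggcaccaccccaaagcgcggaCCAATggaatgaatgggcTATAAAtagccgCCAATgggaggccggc
The search covered 4 motifs on both strands. They were the TATA box TATAAA, the CCAAT box, the canonical E-box of MYC and MAX with the letters CACGTG, and the consensus of a p53 half-site. The Ckm window held none of them, the Gatm window held 2 CCAAT, and the Ckb window held 1 TATAAA and 2 CCAAT. For the TATA box only the exact letters TATAAA were counted. The Ckm window holds the letters tatataa toward its end, which are not that motif and are not marked. Over all 32851 promoter windows of this length, 12.4% held TATAAA, 33.8% CCAAT, 6.02% CACGTG and 7.13% the p53 half-site consensus. The Gamt window also held none of them, and none of the motifs overlapped in these windows. The windows differed little in base composition, with 64.8% G and C for Ckm, 59.2% for Gatm and 62.8% for Ckb.

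Between both FGF groups, as 1 contrast, and sgTrp53+MYC tumors, 2 of the 4 members tested passed, both lower in the FGF groups. Among all 14333 genes, 12.1% were lower and 11.6% higher in this comparison. Gatm and Gamt, the 2 synthesis enzymes, were these members, while Slc6a8 and Ckb did not pass. All fold changes and adjusted p-values below are from edgeR's quasi-likelihood test with Benjamini-Hochberg adjustment over all genes tested.

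**Figure D1:**
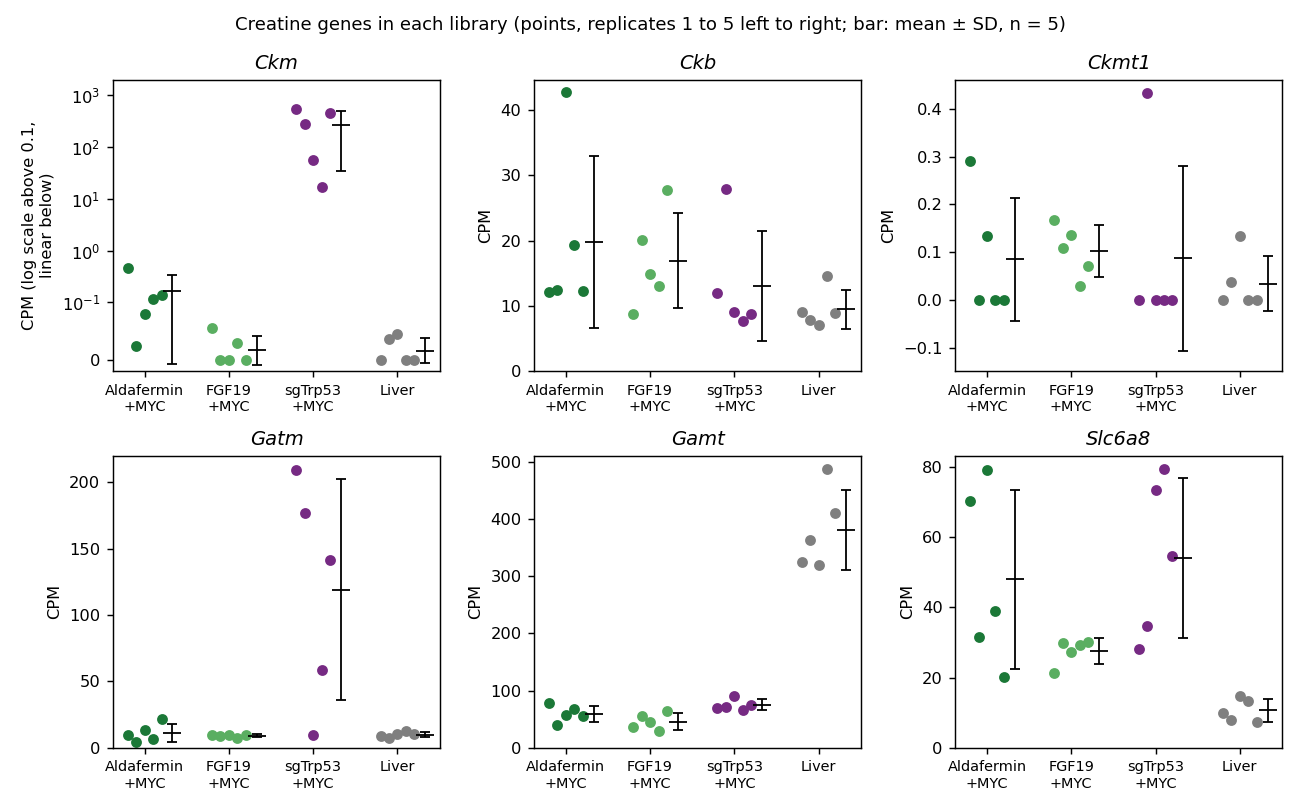
Level of 6 creatine genes in CPM (y axis; for Ckm on a log scale above 0.1 and linear below) in every library of the 4 groups (x axis), with replicates 1 to 5 from left to right and mean ± SD (n = 5) beside them. Ckm reached 16.7 to 549 CPM in sgTrp53+MYC tumors and at most 0.461 CPM elsewhere, Gatm was high in 4 of 5 sgTrp53+MYC tumors, and Gamt was highest in all 5 livers. Ckmt2 had no read and is not drawn.

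Gatm (ENSMUSG00000027199.16, chr2:122424948-122441799 on the minus strand, GRCm39), the enzyme of the first step, had 209, 176, 9.38, 58.5 and 142 CPM in sgTrp53+MYC replicates 1 to 5. In Aldafermin+MYC tumors it had 9.86, 4.56, 13.6, 6.58 and 21.9 CPM, in FGF19+MYC tumors 9.32, 8.78, 9.96, 7.69 and 9.63 CPM, and in Liver 9.11, 7.26, 10.3, 12.8 and 10.2 CPM. Replicates 1, 2, 4 and 5 of sgTrp53+MYC lay above all other 15 libraries, and replicate 3 lay within the range of the other groups. The mean was 119 ± 83.2 CPM (SD, n = 5) in sgTrp53+MYC tumors and 9.92 ± 2 CPM (SD, n = 5) in Liver. Gatm was 11.8-fold lower in the FGF groups than in sgTrp53+MYC tumors (log2 fold change -3.56, SE 0.43, adjusted p = 2.24e-05). It was 12.0-fold higher in sgTrp53+MYC tumors than in Liver (log2 fold change 3.59, SE 0.57, adjusted p = 1.43e-05). Against Liver it differed by less than the spread in Aldafermin+MYC tumors (log2 fold change 0.19, 95% interval -0.89 to 1.27, adjusted p = 0.756) and in FGF19+MYC tumors (-0.13, 95% interval -1.22 to 0.96, adjusted p = 0.838). The sign of the latter turned when libraries were scaled by their totals (0.71, adjusted p = 0.202). Since the creatine genes were assembled with the Ckm result in view, the Gatm difference is no independent support for one in the pathway.

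Gamt (ENSMUSG00000020150.15, chr10:80089960-80096860 on the minus strand, GRCm39), the methyltransferase of the second step, showed another pattern: it was low in every tumor. It had 325, 363, 320, 487 and 410 CPM in Liver replicates 1 to 5. Aldafermin+MYC tumors had 78.5, 40.1, 57.1, 66.8 and 54.8 CPM, FGF19+MYC tumors 35.4, 55.0, 44.1, 29.4 and 64.8 CPM, and sgTrp53+MYC tumors 69.4, 72.0, 90.9, 66.2 and 75.0 CPM. No tumor reached the lowest liver, and the sgTrp53+MYC range overlapped that of the Aldafermin+MYC tumors. Gamt was 6.40-fold lower than Liver in Aldafermin+MYC (log2 fold change -2.68, SE 0.22, adjusted p = 2.02e-09), 8.32-fold lower in FGF19+MYC (-3.06, SE 0.22, adjusted p = 3.97e-10) and 5.10-fold lower in sgTrp53+MYC tumors (-2.35, SE 0.21, adjusted p = 1.01e-08). These 3 falls stood beside a fall of the hepatocyte marker list, of which 10 of 10 genes were lower than Liver in each tumor group, with summed levels of 189721 to 238645 CPM in Liver and 4216 to 30970 CPM in tumors. The part of that fall in the Gamt values was not tested, and fewer cells of a type and less RNA per cell cannot be told apart in bulk samples.

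The difference in Gamt between tumor types was small. It was 1.43-fold lower in the FGF groups than in sgTrp53+MYC tumors (log2 fold change -0.52, SE 0.17, adjusted p = 0.0365), and this call did not survive every way of fitting. The adjusted p was 0.0508 when only these groups were fitted and ran from 0.0155 to 0.106 when 1 library was left out, with 8 of the 15 such fits over 0.05, the highest without sgTrp53+MYC replicate 3. In the GENCODE M39 models 9.41% of the exon bases of the canonical Gamt transcript overlap Ndufs7 on the opposite strand, and whether the counting used the strand of these stranded libraries is not given in the sources used here.

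Compared per kilobase of coding length, the order of the synthesis enzymes differed between groups. The log2 ratio of Gatm over Gamt had a median of -6.09 in Liver, between -6.49 and -5.80. It was -3.83 (-4.19 to -2.17) in Aldafermin+MYC and -2.99 (-3.59 to -2.77) in FGF19+MYC tumors. In sgTrp53+MYC tumors the median was 0.0752, and 3 libraries, replicates 1, 2 and 5, had more Gatm than Gamt on this scale, whereas replicate 3 was at -4.12 and replicate 4 at -1.02. With the length of the canonical transcript in place of the coding length every ratio moved up by the same amount, to medians of -4.19, -1.93, -1.08 and 1.98, so the level at which the enzymes are equal depends on the length used while the order of the groups does not.

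**Figure D2:**
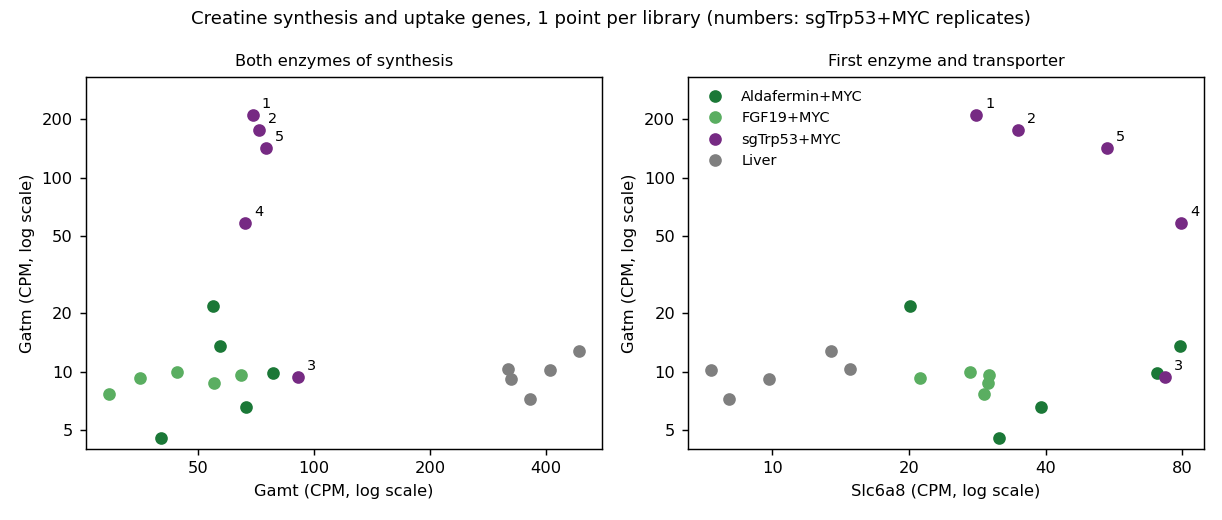
Gatm (y axis, CPM, log scale) against Gamt (left, x axis, CPM, log scale) and against Slc6a8 (right, x axis, CPM, log scale), with 1 point per library coloured by group and the replicate number beside each sgTrp53+MYC tumor. Livers sit apart with 320 to 487 CPM of Gamt and at most 14.8 CPM of Slc6a8, and sgTrp53+MYC replicates 1, 2, 4 and 5 sit above all others for Gatm, while replicate 3 lies among the other tumors.

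Slc6a8 (ENSMUSG00000019558.16, chrX:72716728-72726108 on the plus strand, GRCm39), the sodium- and chloride-dependent creatine transporter, was higher in all 3 tumor groups than in Liver. Liver replicates 1 to 5 had 9.83, 8.03, 14.8, 13.5 and 7.33 CPM. Aldafermin+MYC tumors had 70.2, 31.6, 79.1, 39.03 and 20.1 CPM, FGF19+MYC tumors 21.2, 29.9, 27.2, 29.3 and 30.0 CPM, and sgTrp53+MYC tumors 28.1, 34.8, 73.3, 79.5 and 54.6 CPM. No liver reached the lowest tumor, and the 3 tumor groups overlapped. Slc6a8 was 4.50-fold higher than Liver in Aldafermin+MYC (log2 fold change 2.17, SE 0.35, adjusted p = 2.02e-05), 2.58-fold higher in FGF19+MYC (1.37, SE 0.34, adjusted p = 0.00164) and 5.07-fold higher in sgTrp53+MYC tumors (2.34, SE 0.35, adjusted p = 8.55e-06). Between the FGF groups and sgTrp53+MYC tumors it did not pass (log2 fold change -0.57, 95% interval -1.17 to 0.02, adjusted p = 0.153). Within sgTrp53+MYC, the libraries with the highest Gatm, replicates 1, 2 and 5, were the lowest for Slc6a8, which is a description of 5 libraries. In the GENCODE M39 models 7.42% of the exon bases of the canonical Slc6a8 transcript overlap noncoding genes on the opposite strand.

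Across the 4 tested members, 2 were higher and 1 lower than Liver in Aldafermin+MYC tumors, where 38.4% of all genes were higher and 31.9% lower. In FGF19+MYC tumors 1 was higher and 1 lower, against 36.9% and 32.9% of all genes. In sgTrp53+MYC tumors 2 were higher and 1 lower, against 36.9% and 33% of all genes. The counts are near these shares of all genes and are not a result about the creatine genes. Scaling by library totals in place of TMM moved the median of all genes against Liver from 0.13 to 0.97 in Aldafermin+MYC, from 0.06 to 0.91 in FGF19+MYC and from 0.07 to 0.95 in sgTrp53+MYC tumors, on the log2 scale, and the calls on Gamt and Slc6a8 and that on Gatm in sgTrp53+MYC kept their direction under both.

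**Figure D3:**
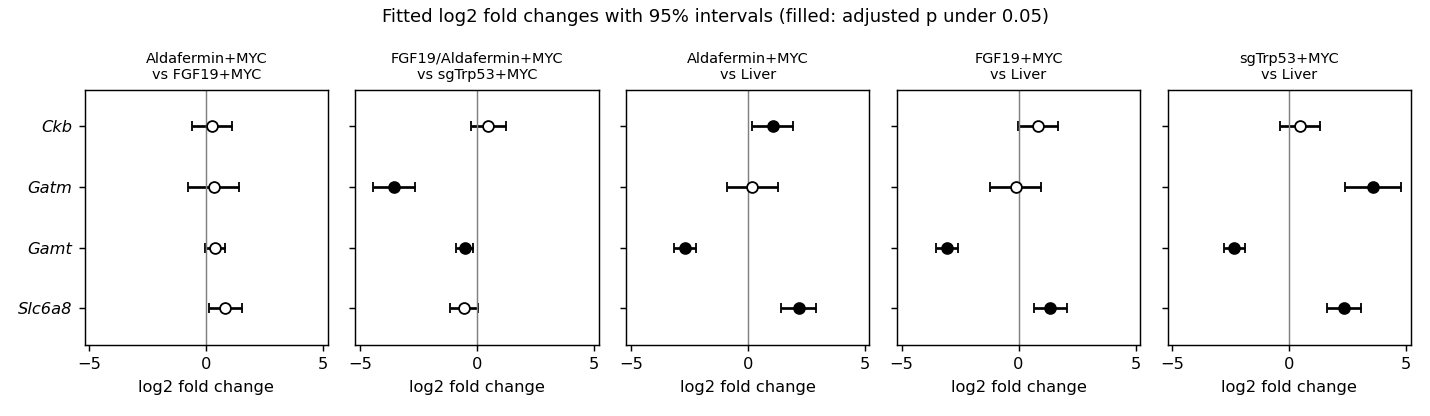
Fitted log2 fold change (x axis) of 4 creatine genes (y axis) in the 5 comparisons, 1 panel each, with 95% intervals; filled points have an adjusted p under 0.05. Gamt lies between -3.06 and -2.35 in each comparison with Liver, Slc6a8 between 1.37 and 2.34, and no point is filled between Aldafermin+MYC and FGF19+MYC.

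Ckm (ENSMUSG00000030399.4, chr7:19138701-19157965 on the plus strand, GRCm39), the muscle creatine kinase, had 33337, 19841, 4812, 1223 and 29632 reads in sgTrp53+MYC replicates 1 to 5. Aldafermin+MYC tumors had 19, 1, 3, 3 and 5 reads, FGF19+MYC tumors 1, 0, 0, 1 and 0 reads, and Liver 0, 1, 1, 0 and 0 reads. The sgTrp53+MYC libraries lay far above all others, and in 11 of the other 15 libraries there was 1 read or none. In CPM the sgTrp53+MYC tumors had 549, 278, 55.5, 16.7 and 455, with a mean of 271 ± 236 (SD, n = 5), so the lowest and highest tumor of this group were themselves far apart. These values chose the gene, and no test was made on them.

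Pooled over libraries, Ckm was 1448 times higher in sgTrp53+MYC than in Aldafermin+MYC tumors (95% interval from the read counts 1020 to 2131), and 2888 times higher without Aldafermin+MYC replicate 1, which held 19 of the 31 reads of its group. Over FGF19+MYC tumors, with 2 reads in all, the ratio was 16178 (4478 to 133588), and over Liver, also with 2 reads, 12874 (3564 to 106304). These intervals cover counting error only and not the spread between tumors. They come from the values that chose the gene, so they are a description and no test. In the libraries with the highest Ckm Gatm was high too: replicates 1, 2 and 5 of sgTrp53+MYC led in both genes, but replicate 3 had 55.5 CPM of Ckm beside 9.38 CPM of Gatm, a Gatm level found in the other groups. In the GENCODE M39 models 9.41% of the exon bases of the canonical Ckm transcript overlap A930016O22Rik, a noncoding gene on the opposite strand, which had 37 reads in all sgTrp53+MYC libraries together and none elsewhere.

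Of other skeletal muscle transcripts, most but not all were low where Ckm was high. Of 30 skeletal muscle marker genes, 24 were below 1 CPM in every sgTrp53+MYC library. Myh2, Pvalb and Myod1 had no read in any of the 20 libraries. Low levels were common among all genes too, since only 14333 of the 50559 genes passed the filter on low counts. The share of all genes below 1 CPM in every sgTrp53+MYC library is not given here. The count of 24 is therefore a description and not a result about muscle genes. Among the sarcomeric genes and regulators Acta1, Myh1, Myh2, Myh4, Tnnt3, Tnni2, Tnnc2, Atp2a1, Mb, Myod1 and Myog, the highest level in any sgTrp53+MYC library was 0.224 CPM. The summed level of the 30 markers was 16.8 to 49.4 CPM in sgTrp53+MYC tumors, 19.6 to 39.5 CPM in Aldafermin+MYC tumors, 20.6 to 29.2 CPM in FGF19+MYC tumors and 22.7 to 31.1 CPM in Liver, so it overlapped between all groups. The highest sum, 49.4 CPM, was in sgTrp53+MYC replicate 2, which had 278 CPM of Ckm. The markers that reached 1 CPM in some sgTrp53+MYC library were Tnnt1, Tnnc1, Mylpf, Pygm, Eno3 and Des, and the highest level of any was that of Eno3, a glycolytic enolase, with 36.2 CPM in 1 library. Of 7 tested muscle markers 1, Eno3, was lower and 0 were higher in the FGF groups than in sgTrp53+MYC tumors, beside 12.1% lower and 11.6% higher among all genes; Eno3 was singled out after its values were seen.

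**Figure D4:**
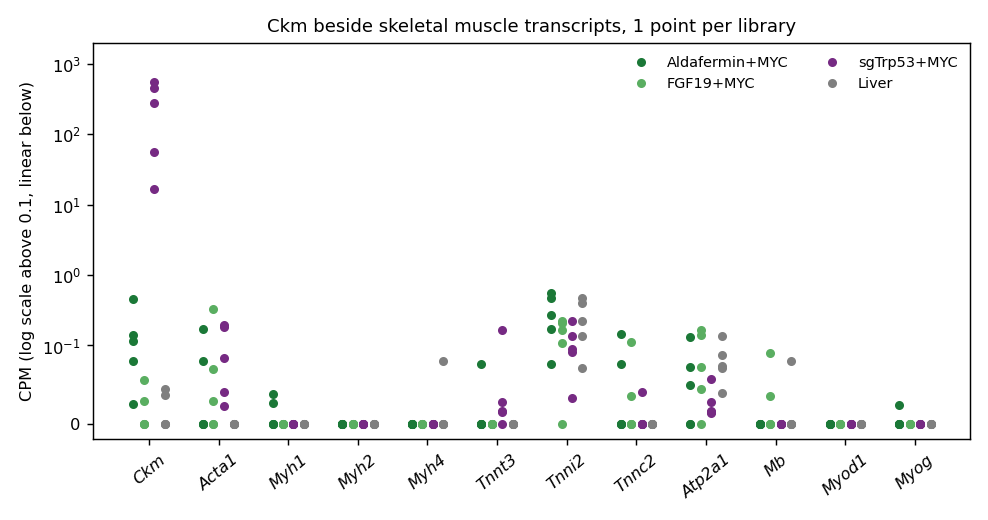
Level of Ckm and of 11 other skeletal muscle genes (x axis) in CPM (y axis, log scale above 0.1 and linear below), with 1 point per library coloured by group. Ckm reaches 549 CPM in sgTrp53+MYC tumors, whereas the 11 other genes drawn stay at or below 0.224 CPM there and at or below 0.561 CPM in every library. They are a part of the 30 markers. Tnnt1, Tnnc1, Mylpf, Pygm, Eno3 and Des, which reached 1 CPM in some sgTrp53+MYC library, are not drawn.

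Ckb (ENSMUSG00000001270.11, chr12:111635789-111639008 on the minus strand, GRCm39), the brain-type kinase, was detected in all 20 libraries. It had 12.2, 12.5, 42.7, 19.4 and 12.3 CPM in Aldafermin+MYC, 8.82, 20.1, 14.9, 13.0 and 27.7 CPM in FGF19+MYC, 11.9, 28.0, 9.11, 7.76 and 8.78 CPM in sgTrp53+MYC tumors and 9.04, 7.81, 7.11, 14.6 and 8.93 CPM in Liver. All groups overlapped. Ckb passed against Liver in Aldafermin+MYC tumors (log2 fold change 1.07, SE 0.42, adjusted p = 0.0282), and without Aldafermin+MYC replicate 3 it did not (0.58, adjusted p = 0.175). That replicate had the highest Ckb and also the highest summed markers of its group for smooth muscle (339 CPM), stellate cells and fibroblasts (2084 CPM), leukocytes (636 CPM) and endothelium (173 CPM), whose part in the value was not tested. The call was also lost without Liver replicate 1, 2, 3 or 5, with adjusted p from 0.0532 to 0.0669. Against Liver, Ckb was at 0.84 on the log2 scale (SE 0.41, adjusted p = 0.0792) in FGF19+MYC and at 0.47 (SE 0.41, adjusted p = 0.320) in sgTrp53+MYC tumors, and between the FGF groups and sgTrp53+MYC tumors at 0.48 (95% interval -0.27 to 1.24, adjusted p = 0.355).

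The sgTrp53+MYC tumor with the highest Ckb, replicate 2 with 28.0 CPM, had a summed level of 795 CPM for 7 cholangiocyte markers, the highest of all libraries. Krt19 was at 191 CPM there, Krt7 at 80.9 CPM and Epcam at 22.2 CPM, and without this library the Ckb difference between sgTrp53+MYC and Liver was -0.011 on the log2 scale (adjusted p = 0.981). The same tumor held all 31 reads of Ckmt1 in its group. The part of cholangiocyte-like transcripts in both values was not tested.

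Ckmt1 (ENSMUSG00000000308.16, chr2:121188195-121195706 on the plus strand, GRCm39), the ubiquitous mitochondrial kinase, was too low to be tested in the model. It had 12, 0, 5, 0 and 0 reads in Aldafermin+MYC, 3, 3, 3, 1 and 2 reads in FGF19+MYC, 0, 31, 0, 0 and 0 reads in sgTrp53+MYC tumors and 0, 1, 3, 0 and 0 reads in Liver. FGF19+MYC was the only group with reads in all 5 libraries, at 0.102 ± 0.054 CPM (SD, n = 5). Of the exon bases of the canonical Ckmt1 transcript, 12.2% overlap Ppip5k1 or Strc on the opposite strand in the GENCODE M39 models. Whether the counting used the strand is not given in the sources used here. In 5 exact two-sided permutation tests of the mean CPM none passed, with the smallest adjusted p at 0.437 for FGF19+MYC against Liver (unadjusted exact p = 0.0873; the smallest possible with 5 against 5 is 0.00794). Ckmt2, the mitochondrial form of striated muscle (ENSMUSG00000021622.5, chr13:92001503-92025608 on the minus strand, GRCm39), had no read in any of the 20 libraries, which allows up to 0.00389 CPM over all libraries together (3 counts) and up to 0.0346 to 0.215 CPM in a single library. A mitochondrial creatine kinase beside Ckm was thus not detectable at this depth in 4 of the 5 sgTrp53+MYC tumors.

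On the scale of RPKM of coding length, the summed creatine kinase level was 21.4 to 491 in sgTrp53+MYC tumors, 10.9 to 37.6 in Aldafermin+MYC, 7.90 to 24.3 in FGF19+MYC and 6.37 to 12.8 in Liver. Only sgTrp53+MYC replicate 4, at 21.4, lay within the range of the other tumors. Ckm made up 97.9%, 90.7%, 85.9%, 68.2% and 98.1% of that sum in sgTrp53+MYC replicates 1 to 5. In the other 15 libraries Ckb made up at least 94.4%, and Ckm at most 3.57%, which was in Aldafermin+MYC replicate 1. With the length of the canonical transcript the share of Ckm in sgTrp53+MYC tumors ran from 43.8% to 94.9%, so in the library with the least Ckm the larger share passed to Ckb under that length.

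**Figure D5:**
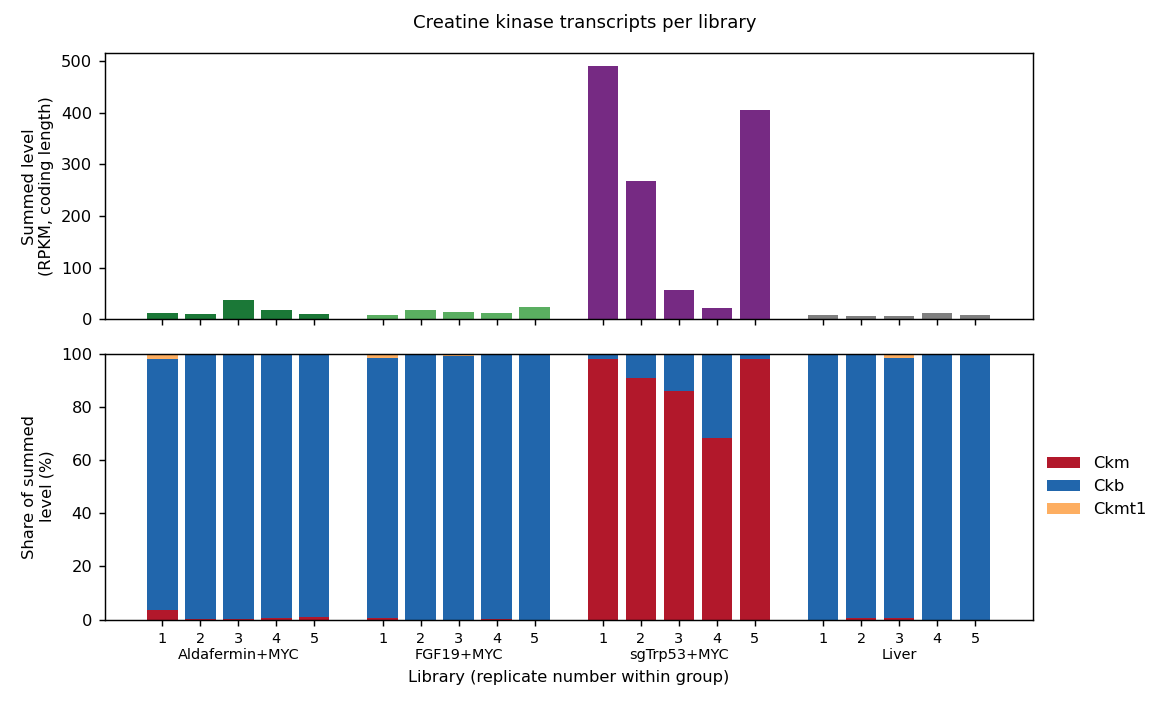
Summed level of creatine kinase transcripts (upper y axis, RPKM of coding length) and the share of Ckm, Ckb and Ckmt1 in it (lower y axis, percent) for each library (x axis, replicates 1 to 5 of each group). Ckm takes 68.2% to 98.1% in sgTrp53+MYC tumors, and Ckb at least 94.4% in all other libraries.

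The hormone and its analog were compared gene by gene. Between Aldafermin+MYC and FGF19+MYC tumors 0 of 4 tested members passed, and 0% of all 14333 genes did. At an unadjusted p under 0.05 there were 1048 genes, among them 1 member, and DESeq2 called 96 genes, the likelihood ratio test of edgeR 74 and the quasi-likelihood test with RLE size factors 2, with no creatine gene under any of them. The member was Slc6a8, 1.74-fold higher in Aldafermin+MYC tumors (log2 fold change 0.80, 95% interval 0.10 to 1.51, adjusted p = 0.587), where 4 of 5 Aldafermin+MYC libraries lay above all FGF19+MYC libraries. The intervals for the others were -0.05 to 0.81 for Gamt (estimate 0.38), -0.77 to 1.40 for Gatm (0.32) and -0.62 to 1.08 for Ckb (0.23), so differences of up to these bounds remain possible. For Ckm, 31 reads stood against 2, a ratio of 11.2 (95% counting interval 2.84 to 96.4), and 19 of the 31 reads were in 1 library. That interval covers counting error only and not the spread between tumors, so it does not show a difference between the groups. The gene passed the filter on low counts only through sgTrp53+MYC, so no test of this difference is given. The spread of Slc6a8 and Gatm was also unlike: the SD of Slc6a8 was 25.4 CPM in Aldafermin+MYC and 3.72 CPM in FGF19+MYC tumors, and that of Gatm 6.84 and 0.890 CPM, a difference that was not tested.

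Genes that supply or spend the substrates of creatine synthesis were counted next. Of 14 genes of the methionine cycle and its methyltransferases, which provide and use the methyl group that Gamt consumes, 3 were lower and 0 higher in the FGF groups than in sgTrp53+MYC tumors, with a list median of -0.21 beside -0.02 over all genes, of which 12.1% were lower and 11.6% higher. These were Mat1a, the S-adenosylmethionine synthetase of the adult liver (log2 fold change -1.25, SE 0.42, adjusted p = 0.0360), Nnmt, the nicotinamide N-methyltransferase (-1.91, SE 0.66, adjusted p = 0.0421), and Bhmt, which remethylates homocysteine with betaine (-1.25, SE 0.44, adjusted p = 0.0445). Against Liver, 8 of the 14 were lower and 3 higher in each tumor group, with list medians from -2.36 to -2.22, where 31.9% to 33% of all genes were lower and 36.9% to 38.4% higher. In sgTrp53+MYC tumors Cbs, the cystathionine synthase, was at 122 ± 22.1 CPM against 1016 ± 219 in Liver (SD, n = 5; adjusted p = 2.50e-10). Mtrr, the reductase that keeps methionine synthase active, was at 40.2 ± 6.91 CPM against 10.4 ± 1.08 (SD, n = 5; adjusted p = 1.03e-09).

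Of 9 genes that use arginine or glycine, 8 were tested. In the FGF groups against sgTrp53+MYC tumors 2 were higher, the glycine-forming serine hydroxymethyltransferase Shmt1 (log2 fold change 0.47, SE 0.14, adjusted p = 0.0212) and the glycine decarboxylase Gldc (0.70, SE 0.21, adjusted p = 0.0220), and 1 was lower, the dihydrolipoamide dehydrogenase Dld (-0.51, SE 0.15, adjusted p = 0.0182). The median of the list was 0.11, and 11.6% of all genes were higher and 12.1% lower. In sgTrp53+MYC tumors 4 of the 8 were lower than Liver and 2 higher, beside 33% and 36.9% of all genes. The most significant were Oat, the ornithine aminotransferase, with 127 ± 35.3 against 926 ± 362 CPM (SD, n = 5; adjusted p = 5.26e-07), and Arg1, the arginase of the urea cycle, with 372 ± 286 against 2319 ± 268 CPM (SD, n = 5; adjusted p = 2.07e-05). Arg1 competes with Gatm for arginine, as background.

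Adenylate kinases balance ATP, ADP and AMP beside the creatine kinases. Of 9, 6 passed the filter on low counts, but Ak1 and Ak7 did so only through the groups in which they were high, so their levels are a description without a test. Ak1, the cytosolic form of muscle, was at 1.99 ± 1.2 CPM in Aldafermin+MYC, 2.11 ± 0.653 in FGF19+MYC and 0.453 ± 0.191 in sgTrp53+MYC tumors and 0.569 ± 0.173 in Liver (SD, n = 5). Ak7, a form of cilia and flagella, was at 4.61 ± 4.09 CPM in sgTrp53+MYC and at 0.197 ± 0.124 and 0.233 ± 0.0861 CPM in Aldafermin+MYC and FGF19+MYC tumors, with 0.340 ± 0.163 CPM in Liver (SD, n = 5). Of the other 4, 1 was lower in the FGF groups than in sgTrp53+MYC tumors and 0 were higher, beside 12.1% and 11.6% of all genes. This was Ak3, a GTP-using form of the mitochondrial matrix (log2 fold change -0.60, SE 0.11, adjusted p = 0.000711), which was also lower in sgTrp53+MYC tumors than in Liver (-1.10, SE 0.13, adjusted p = 3.93e-07).

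Mitochondrial creatine kinases work beside the adenine nucleotide translocases and the voltage-dependent anion channels. Of 6 such genes 5 were tested, and none passed between the FGF groups and sgTrp53+MYC tumors, where Slc25a5 came nearest (log2 fold change 0.35, SE 0.13, adjusted p = 0.0574). Against Liver 5 were higher in Aldafermin+MYC and 4 in each of FGF19+MYC and sgTrp53+MYC tumors, and none was lower, where 38.4%, 36.9% and 36.9% of all genes were higher. Slc25a4, the translocase of muscle and heart, was at 599 ± 207 CPM in Aldafermin+MYC, 466 ± 169 in FGF19+MYC, 470 ± 104 in sgTrp53+MYC tumors and 9.47 ± 4.31 in Liver (SD, n = 5), with a log2 fold change of 5.64 (SE 0.35, adjusted p = 5.37e-11) between sgTrp53+MYC and Liver. This muscle-type gene was thus high in all 3 tumor groups, unlike Ckm.

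AMPK, the kinase that senses AMP, had 6 of its 7 subunit genes tested. In the FGF groups 2 were lower and 0 higher than in sgTrp53+MYC tumors: the catalytic subunit gene Prkaa2 (log2 fold change -0.92, SE 0.18, adjusted p = 0.00109) and the regulatory gene Prkag2 (-0.54, SE 0.11, adjusted p = 0.00196). The list median was -0.33, and 12.1% of all genes were lower and 11.6% higher. Against Liver, 2 were higher and 1 lower in sgTrp53+MYC tumors, beside 36.9% and 33% of all genes, with the catalytic gene Prkaa1 at 1.41 (SE 0.19, adjusted p = 1.66e-06) and the scaffold gene Prkab2 at 1.57 (SE 0.22, adjusted p = 3.37e-06). Between Aldafermin+MYC and FGF19+MYC tumors no gene of these 5 lists passed.

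The genes most like each member that passed the filter were found by Pearson's r of log2 CPM over the 20 libraries, after the mean of each group was taken out. For Ckm they were Mapkapk3 (r = 0.85), Slc25a36 (0.85) and Hdhd3 (0.84). Over the 15 libraries without sgTrp53+MYC, where Ckm had at most 19 reads, r was 0.34, 0.80 and 0.66 for these genes. For Gatm they were Anapc15 (0.89), Cdc34 (0.87) and Alg1 (0.86), and for Gamt Ptms (0.82), Cltb (0.78) and Arf5 (0.76). For Ckb they were Scarf2 (0.93), Rps6ka4 (0.92) and Orai1 (0.90), and for Slc6a8 Pitpnm1 (0.87), Slc9a3r2 (0.87) and Gmip (0.86). These were the highest among 14333 genes, the points share library and scaling, and they serve as a description. No creatine gene was among the 3 genes most like another.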

How the data were processed

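The members and the gene lists were chosen with earlier results of these data known. RNA of 20 samples, 5 per group and from separate mice for the tumors, had been prepared with a stranded poly(A) kit. The authors aligned the reads to mm39 with HISAT2 and counted reads per RefSeq gene with htseq-count, and deposited 2 tables of raw counts per gene, which share 50559 gene symbols; the 5 summary lines were removed. Here edgeR 4.0.16 (R 4.3.3) fitted 1 quasi-likelihood model of 4 groups to TMM-scaled counts of the 14333 genes that reached 1 CPM in 5 or more libraries, with Benjamini-Hochberg adjustment and a threshold of 0.05. FGF19+MYC and Aldafermin+MYC were averaged for the comparison with sgTrp53+MYC. Members below the filter were compared by exact permutation. Ckm had been meant for the test between Aldafermin+MYC and FGF19+MYC, but passed the filter only through sgTrp53+MYC, so that test is not given. Coding and transcript lengths and positions came from GENCODE M39 (GRCm39), promoters from RefSeq (GRCm38.p6). The code was tested on simulated data. Named genes were all members, up to 3 genes of each pathway list with the smallest adjusted p between the FGF groups and sgTrp53+MYC and up to 2 for sgTrp53+MYC against Liver, defining markers, label checks, and for each member the 3 most similar genes. Alternatives were DESeq2 1.42.0, the edgeR likelihood ratio test, RLE and total scaling, other filters, fits of the compared groups alone, a replicate block and leaving out each library. The result of 1 gene that this rule names is not reported here.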

Additional observations from a re-analysis of the deposited data

Results flagged for a closer look

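In 24 sets of 5 libraries (1 gene in 1 group), 6 had a library far from the other 4 by Dixon's test, where about 1.2 would be flagged by chance if values were normally distributed. CPM near 0 are not so distributed, and no excess over 1.2 is read from these flags. For Ckm the library was Aldafermin+MYC replicate 1, with 0.461 CPM beside 0.0248 to 0.140 CPM. For Ckb it was Aldafermin+MYC replicate 3 with 42.7 CPM beside 12.2 to 19.4, sgTrp53+MYC replicate 2 with 28.0 CPM beside 7.76 to 11.9, and Liver replicate 4 with 14.6 CPM beside 7.11 to 9.04. For Ckmt1 it was sgTrp53+MYC replicate 2 with 0.434 CPM beside 0 in the others, and Liver replicate 3 with 0.133 CPM beside at most 0.0367 CPM.

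The distance of tumors from liver differed between tumor types for 2 members, by the fitted difference between both FGF groups and sgTrp53+MYC tumors: Gatm with a log2 fold change of -3.56 and Gamt with -0.52. The Liver level cancels out of this fitted difference, in which tumor type and table cannot be told apart.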

How the results depend on the processing

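The count of members passing between the FGF groups and sgTrp53+MYC tumors fell from 2 to 1, Gatm, when only the compared groups were fitted and with a replicate block. The numbers of the replicates did not pair the samples (same-number correlations of -0.333 to 0.333), and under the block Gamt was at adjusted p = 0.0605 and Ckb in Aldafermin+MYC against Liver at 0.0571, while the other member calls did not change. With 1 library left out, 1 to 2 members passed in that comparison, 2 to 3 in Aldafermin+MYC and in FGF19+MYC against Liver, 3 in each fit of sgTrp53+MYC against Liver and 0 between Aldafermin+MYC and FGF19+MYC.

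Of 397 refits of single members, 369 kept direction and side of the threshold, 16 lost a call, 6 gained one and 6 changed sign, all 6 in comparisons that did not pass. The 397 and the 369 include refits of Ckm between Aldafermin+MYC and FGF19+MYC, 7 under other settings and 10 with 1 library left out. Those of Ckm carry no result, since no test of that difference is given. The log2 fold change of Gatm in FGF19+MYC against Liver became 0.71 with library totals and 0.049 with no filter on low counts. With 1 library left out, Gatm ran from -0.085 to 0.52 in Aldafermin+MYC against FGF19+MYC and from -0.13 to 0.39 against Liver, both lowest without Aldafermin+MYC replicate 5. Ckb ran from -0.26, without Aldafermin+MYC replicate 3, to 0.48 between Aldafermin+MYC and FGF19+MYC, and from -0.011, without sgTrp53+MYC replicate 2, to 0.66 in sgTrp53+MYC against Liver. For Ckmt1 the mean of log2 CPM gave -0.30 for Aldafermin+MYC and -1.40 for sgTrp53+MYC against Liver, where the mean CPM was higher in both tumor groups; the added count of 2 weighs more in smaller libraries. The cause of the other changes was not tested. Ckb in FGF19+MYC against Liver passed with library totals (1.71), with no filter (1.00), with only the compared groups (0.79) and without FGF19+MYC replicate 1 (1.00) or Liver replicate 4 (1.03), and Ckb in sgTrp53+MYC against Liver with library totals (1.35). For the Ckm read ratios, scalings and omitted libraries were added after the data were seen: the log2 ratio over Aldafermin+MYC ran from 10.1 to 11.5, over FGF19+MYC from 13.6 to 14.8 and over Liver from 13.2 to 14.5. Low counts limit Ckm outside sgTrp53+MYC (0 to 19 reads per library), Ckmt1 (0 to 31) and Ckmt2 (0).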

Other observations

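The protein-coding genes nearest to Ckm and Gatm were looked up after the values of both were seen. Of the 3 on either side of Ckm, Ercc2, Ppp1r13l, Exoc3l2 and Bloc1s3 did not pass between the FGF groups and sgTrp53+MYC tumors. Mark4, 734 bp beyond Ckm, was lower in the FGF groups (log2 fold change -0.82, SE 0.19, adjusted p = 0.0039, edgeR's quasi-likelihood test), at 24.2 ± 7.82 CPM in sgTrp53+MYC tumors, 13.8 ± 4.17 in Aldafermin+MYC, 13.5 ± 2.45 in FGF19+MYC and 27.6 ± 1.73 in Liver (SD, n = 5). Klc3, 646 bp before it, was below the filter, with 1.33 ± 1.15 CPM in sgTrp53+MYC tumors, 0.290 ± 0.206 in Aldafermin+MYC, 0.228 ± 0.137 in FGF19+MYC and 0.850 ± 0.420 in Liver (SD, n = 5). The mean levels of the 6 neighbours in sgTrp53+MYC tumors were between 1.33 and 43.5 CPM.

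Around Gatm, Shf and Slc28a2 did not pass, and Slc28a2b and AA467197 were below the filter. Afg2b, 19312 bp away, was not among the gene symbols counted. Slc30a4, a zinc transporter, was lower in the FGF groups (log2 fold change -0.79, SE 0.17, adjusted p = 0.00222, edgeR's quasi-likelihood test), with means of 38.0 CPM in sgTrp53+MYC tumors, 27.4 in Aldafermin+MYC, 17.6 in FGF19+MYC and 19.0 in Liver. Beside Mark4 and Slc30a4, 12.1% of all genes tested were lower in the FGF groups than in sgTrp53+MYC tumors and 11.6% higher.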
